A study of Homo sapiens with 19 samples.

Results

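The response of HepaRG cells to ADAR siRNA was set against their response to interferon alpha (IFNa), gene by gene, to see which genes answer the loss of the enzyme beyond, or short of, what the cytokine does. The samples of these responses were 11 of the 19 libraries of the series. The ADAR siRNA response was the log2 level in 3 ADAR siRNA libraries minus that in 3 libraries with a control siRNA (siNC), all of batch 1. The IFNa response was the log2 level in 2 IFNa libraries minus that in 3 siNC libraries of batch 2. The difference between responses was the ADAR siRNA response minus the IFNa response, on the log2 scale, so a negative difference marks a gene that went less far upward after ADAR siRNA than after IFNa. The responses shared no library. A side comparison inside batch 2 used 3 libraries with the kinase inhibitor BX795 (1 µM) and 2 with BX795 and ADAR siRNA. The statistical fit drew on all 19 libraries.

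HepaRG is a human hepatic line whose bipotent precursors give rise to cells resembling hepatocytes and cells resembling bile duct epithelium. All cells were differentiated before treatment. ADAR siRNA and siNC were transfected at 20 nM, and IFNa was given at 1000 U/mL from the day of transfection and again when the medium was replaced at 24 h and at 48 h. The sources used here do not state if the IFNa wells were transfected with siNC too, so an effect of that transfection cannot be told apart from the IFNa response. The ADAR siRNA was a single sequence, and no label states that replicates came from separate cultures, so p-values measure the spread between libraries, which may be technical. In bulk RNA, fewer cells of a type and less RNA per cell cannot be told apart.

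ADAR encodes the adenosine deaminase that turns adenosine into inosine in double-stranded RNA, and its longer isoform is itself made in response to interferon. Unedited double-stranded RNA can be read as foreign by cytosolic sensors such as MDA5 (IFIH1), by the kinase PKR (EIF2AK2) and by the oligoadenylate synthetases. The sensors signal through MAVS and TBK1 to interferon regulatory factors and to NF-kB. Interferon alpha enters lower down: it binds the receptor IFNAR1 and IFNAR2, the kinases JAK1 and TYK2 activate STAT transcription factors, and these join IRF9 on interferon-stimulated response elements (ISRE) in promoters.

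Total counts were 47.7 to 56.3 M in the ADAR siRNA libraries, 45.8 to 77.1 M in batch 1 siNC, 25.0 to 34.7 M in the IFNa libraries and 13.1 to 22.8 M in batch 2 siNC. The batches differed in the levels of liver genes. ALB lay at 27636 to 28904 CPM after ADAR siRNA, 41566 to 43752 in batch 1 siNC, 5583 to 5796 after IFNa and 6234 to 7589 in batch 2 siNC. CYP3A4 was below 3 CPM in all 5 IFNa and batch 2 siNC libraries. In batch 2 libraries with the inhibitor BX795 it was higher, at 65.2 to 81.2 CPM, and at 84.4 and 122 CPM with ADAR siRNA added. The GC trend, computed on each library's log2 deviation from the mean of its batch as the mean for GC-rich genes (over 60%) less the mean for GC-poor genes (below 40%), was -0.09 to 0.01 after ADAR siRNA and -0.07 to -0.03 in batch 1 siNC, but -0.39 and 0.07 after IFNa and 0.27 to 1.05 in batch 2 siNC. Mitochondrial mRNA was 6.76% to 6.97% of counts after ADAR siRNA and 6.26% to 6.95% in batch 1 siNC. It was 2.97% and 3.94% after IFNa and 1.62% to 3.2% in batch 2 siNC. The markers PTPRC, CD3E, MS4A1 and CDH5 of leukocytes and endothelium lay at or under 0.373 CPM in all 11 libraries, the endothelial markers VWF and PECAM1 reached 0.452 and 1.73 CPM after ADAR siRNA and 0.346 and 0.74 CPM in batch 1 siNC, the macrophage marker CD68 lay at 19.3 to 42 CPM, and the epithelial marker EPCAM was at 0.

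The targeted gene moved in opposite directions. ADAR (ENSG00000160710.19; GRCh38.p14 chromosome 1, 154582057 to 154627997) was at 62.6, 60.6 and 70.6 CPM after ADAR siRNA, against 260, 261 and 264 CPM in siNC. It was at 776 and 689 CPM after IFNa, against 244, 240 and 196 CPM in the batch 2 siNC libraries. Neither pair of groups overlapped. ADAR fell with the siRNA (log2 -2.02 ± 0.08, SE) and rose with IFNa (1.69 ± 0.09), a difference of -3.71 ± 0.12 with an adjusted p of 1.17e-12 in edgeR's quasi-likelihood test. ADARB1, the second catalytic editing enzyme, had responses of -0.27 ± 0.07 and -0.00 ± 0.08 and no called difference (-0.27 ± 0.10, adjusted p = 0.0546), though 5 of 20 alternatives called it.

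Interferon stimulated genes rose in both responses, and nearly all rose less after ADAR siRNA. Of 62 list members, all tested, 54 rose after ADAR siRNA and 61 after IFNa, and none fell. Over all genes tested, 11% rose after ADAR siRNA and 18.4% after IFNa. The list's median response was 0.98 after ADAR siRNA and 2.62 after IFNa, beside a median of -0.02 over all genes in each. A lower response to ADAR siRNA was called for 57 of the 62 members and a higher one for 0, where 28.7% of all genes had a called difference, 15.5% lower and 13.2% higher. The median difference was -1.31, beside -0.01 over all genes, and single members ranged from -5.56 to 0.21. Of the 53 members that rose in both, 50 had a lower response to ADAR siRNA. For the log2 level in batch 2 siNC minus that in batch 1 siNC, the median over the list was 0.07. Single members differed in both directions, such as MX2 (2.06) and IFIT1 (-0.90), so not every response started from a like level.

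**Figure D1:**
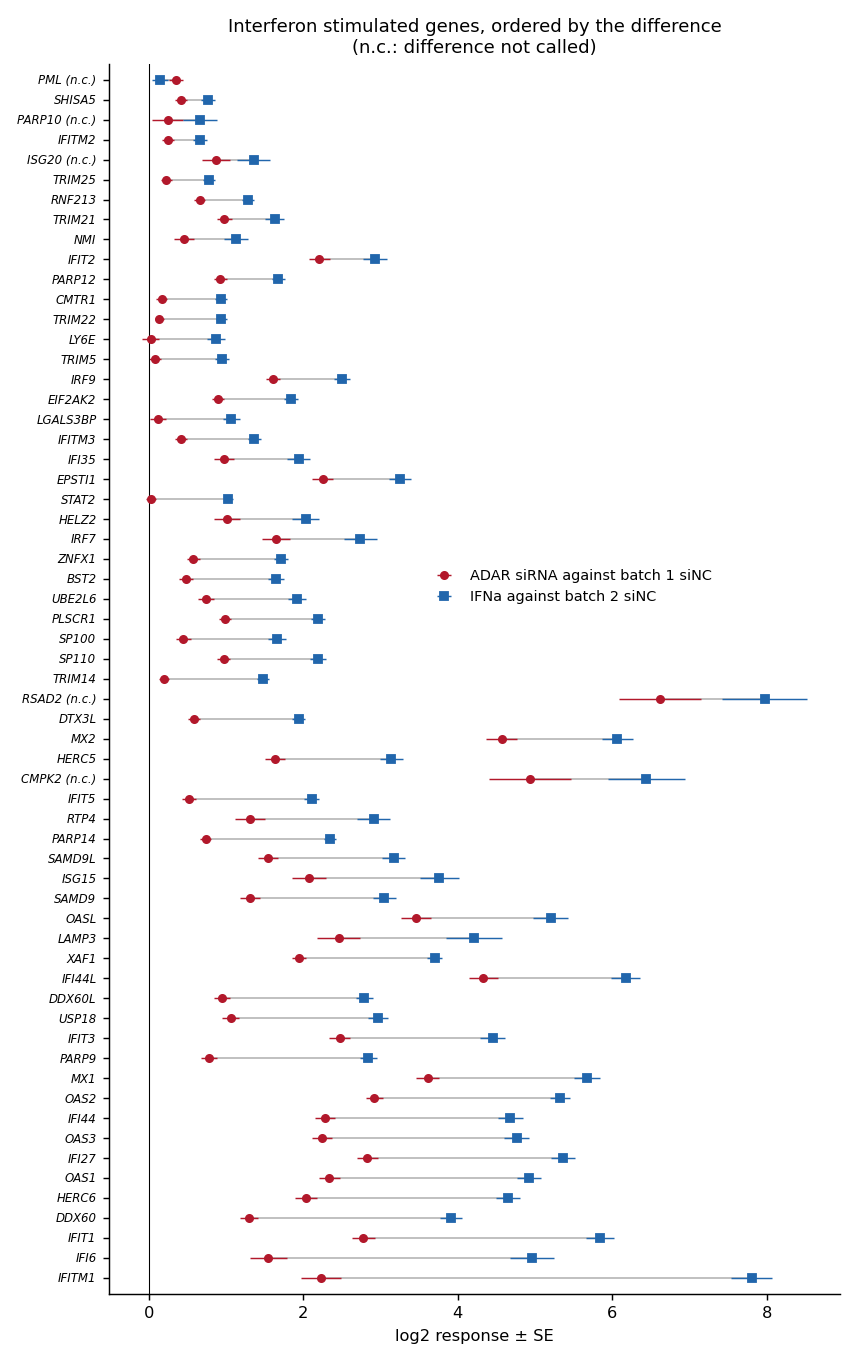
Log2 responses of 61 of the 62 interferon stimulated genes to ADAR siRNA (red circles, 3 against 3 libraries) and to IFNa (blue squares, 2 against 3 libraries); bars are SE and genes are ordered by the difference. The red point lies left of the blue one in every row but that of PML, and 5 genes marked n.c. had no called difference.

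The gap was widest for IFITM1, which encodes a membrane protein that restricts virus entry (chromosome 11, 314040 to 315272). Its level was 1.01, 1.58 and 1.91 CPM after ADAR siRNA, against 0.227, 0.346 and 0.363 CPM in siNC. After IFNa it stood at 80.2 and 73.8 CPM, against 0.435, 0.435 and 0.0741 CPM in batch 2 siNC. The treated libraries lay above their controls in both batches, from similar control levels. The responses were 2.23 ± 0.26 and 7.80 ± 0.27, a difference of -5.56 ± 0.45 (adjusted p = 1.86e-07). IFI6, an interferon-induced protein of mitochondria and the endoplasmic reticulum, had responses of 1.55 ± 0.24 to ADAR siRNA and 4.96 ± 0.28 to IFNa, and a difference of -3.40 ± 0.36 (adjusted p = 3.07e-06).

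IFIT1 encodes a protein that binds viral RNA lacking host cap methylation. It reached 61.4, 68.5 and 106 CPM after ADAR siRNA, against 11.7, 11.1 and 11.6 CPM in siNC, and 364 and 339 CPM after IFNa, against 5.49, 5.91 and 7.34 CPM in batch 2 siNC. No groups overlapped, and the lowest IFNa library was above every ADAR siRNA library. The responses of 2.78 ± 0.15 and 5.84 ± 0.18 differed by -3.06 ± 0.23 (adjusted p = 8.76e-08). OAS2, an oligoadenylate synthetase, was at 68.1 to 95.6 CPM after ADAR siRNA, against 9.97 to 11.5 CPM in siNC, and at 480 to 533 CPM after IFNa, against 11.9 to 13.3 CPM in batch 2 siNC. Its responses of 2.92 ± 0.11 and 5.32 ± 0.13 differed by -2.40 ± 0.16 (adjusted p = 3.05e-08). PARP14, a mono-ADP-ribosyltransferase, had responses of 0.74 ± 0.07 and 2.35 ± 0.08, and a difference of -1.61 ± 0.11 with the same adjusted p of 3.05e-08.

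The 5 interferon stimulated genes without a called difference were RSAD2, CMPK2, ISG20, PARP10 and PML. RSAD2, the antiviral enzyme viperin, had the largest ADAR siRNA response of the list, 6.62 ± 0.53, beside 7.97 ± 0.55 for IFNa. Its levels were 3.17, 3.52 and 5.28 CPM after ADAR siRNA, against 0.0946, 0.0247 and 0 CPM in siNC, and 25.2 and 22.7 CPM after IFNa, against 0, 0.187 and 0.148 CPM in batch 2 siNC. Control levels this near 0 left the difference at -1.35 ± 1.35 (adjusted p = 0.498), so its size is barely limited by these data. CMPK2, a mitochondrial nucleotide kinase gene beside RSAD2 in the genome, had responses of 4.94 ± 0.53 and 6.44 ± 0.50 and a difference of -1.51 ± 1.07 (adjusted p = 0.316). MX2, a dynamin-like antiviral GTPase, and IFI44L had responses of 4.57 ± 0.20 and 4.33 ± 0.19 to ADAR siRNA and of 6.06 ± 0.20 and 6.17 ± 0.19 to IFNa. Their differences, -1.49 ± 0.32 for MX2 and -1.84 ± 0.27 for IFI44L, were called (adjusted p = 0.00217 and 0.000101), but that of MX2 was not called with limma voom and quality weights (adjusted p = 0.0597).

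The 8 members not called after ADAR siRNA were PARP10, LY6E, TRIM5, TRIM14, TRIM22, CMTR1, STAT2 and LGALS3BP. All 8 rose with IFNa, and 7 of them, all but PARP10, had a called lower difference. PML, which builds nuclear bodies, was the sole member not called with IFNa (0.15), while its ADAR siRNA response was 0.36.

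Taken inside batch 2, in cells that also received the TBK1 and IKK epsilon inhibitor BX795 (1 µM), the ADAR siRNA response of the list was smaller. This contrast of 2 libraries with BX795 and ADAR siRNA against 3 with BX795 alone was added after results were seen. There 23 of the 62 members rose and 1 fell, with a median of 0.33, where 9.52% of all genes were called, 5.06% upward and 4.46% downward. Set against the IFNa response of the same batch, 58 members were lower and 0 higher, with a median difference of -2.16, beside 27.3% of all genes called. The inhibitor and the batch cannot be told apart in this value. No siRNA is listed for the libraries with BX795 alone, so an effect of transfection cannot be told apart from it either.

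The relay that carries the interferon signal split by step. Of 22 tested members of the receptor and JAK-STAT list, 8 rose and 0 fell after ADAR siRNA (median 0.07), and 9 rose and 7 fell with IFNa (median 0.10). Over all genes, 11% rose and 10.8% fell after ADAR siRNA, and 18.4% rose and 15.9% fell with IFNa. A difference was called higher for 6 and lower for 7, beside 13.2% and 15.5% of all genes, with a median of -0.05. At the receptor, IFNAR1 had responses of -0.10 ± 0.06 to ADAR siRNA, not called, and -0.57 ± 0.07 to IFNa, and IFNAR2 had 0.07 ± 0.08, not called, and -0.63 ± 0.09. IFNAR1 was at 98.7, 96.1 and 98.5 CPM after ADAR siRNA, against 98.8, 106 and 110 CPM in siNC, and at 102 and 97.3 CPM after IFNa, against 133, 150 and 161 CPM in batch 2 siNC. Both IFNa libraries lay under all their controls. The differences of 0.47 ± 0.10 for IFNAR1 and 0.69 ± 0.12 for IFNAR2 were called (adjusted p = 0.00153 and 0.000342).

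Of the receptor kinases, neither JAK1 (difference 0.14 ± 0.11, adjusted p = 0.337) nor TYK2 (0.29 ± 0.14, adjusted p = 0.128) had a called difference. Both calls depended on the setting: JAK1 was called with the correction for GC content, alone or with the replicate block, and TYK2 with limma voom and without batch 2 siNC replicate 1.

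Further down, STAT2 and IRF9 belong to the activated complex. STAT2 was at 178, 177 and 192 CPM after ADAR siRNA, against 189, 175 and 172 CPM in siNC, so the groups overlapped. With IFNa it stood at 717 and 722 CPM, against 362, 361 and 337 CPM, without overlap. Its responses were 0.03 ± 0.06, not called, and 1.03 ± 0.06 (difference -1.0 ± 0.08, adjusted p = 2.59e-07). IRF9 rose by 1.61 ± 0.09 and 2.50 ± 0.10, and IRF7, the inducible factor for interferon genes, by 1.65 ± 0.18 and 2.74 ± 0.21, with differences of -0.89 ± 0.14 and -1.09 ± 0.28 (adjusted p = 0.000129 and 0.00652).

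Inhibitors of the pathway on the same list were USP18 and SOCS1. USP18, which restrains IFNAR2, rose by 1.06 ± 0.11 after ADAR siRNA and by 2.97 ± 0.13 with IFNa (difference -1.91 ± 0.17, adjusted p = 4.26e-07). SOCS1, an inhibitor of JAK kinases, was at 2.44, 2.91 and 3.7 CPM after ADAR siRNA, against 2.42, 2 and 2.28 CPM in siNC, and fell with IFNa to 5.52 and 7.44 CPM, against 9.64, 12.7 and 12 CPM in batch 2 siNC. Its difference of 1.25 ± 0.27 (adjusted p = 0.0025) was not called with the GC correction, alone (0.51) or with the replicate block (0.58). IRF1 rose by 0.40 ± 0.10 after ADAR siRNA and was not called with IFNa (-0.07 ± 0.11). Its difference of 0.47 ± 0.15 (adjusted p = 0.0226) was lost in 4 of 20 alternatives, each of which left out 1 library: ADAR siRNA replicate 3, siNC replicate 3, IFNa replicate 1 or batch 2 siNC replicate 2.

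The promoters of these genes are shown because the ISRE is the sequence at which the complex of IRF9 and activated STAT factors binds. RefSeq windows of GRCh38.p14 ran from 250 bases before to 50 after the start of each gene and were searched on both strands for GAAA followed, after any 2 bases, by a second GAAA. Of 26 interferon-related genes looked up, 19 had a window. Windows of 2 genes with a called difference in each direction are given, not always those with the smallest p. They are marked by the sign of the difference and run 5′ to 3′ on the strand of the gene. The motif is in capitals (written as TTTC and TTTC where it lies on the opposite strand).

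PARP14 (negative difference; chr3:122680589-122680888, plus strand): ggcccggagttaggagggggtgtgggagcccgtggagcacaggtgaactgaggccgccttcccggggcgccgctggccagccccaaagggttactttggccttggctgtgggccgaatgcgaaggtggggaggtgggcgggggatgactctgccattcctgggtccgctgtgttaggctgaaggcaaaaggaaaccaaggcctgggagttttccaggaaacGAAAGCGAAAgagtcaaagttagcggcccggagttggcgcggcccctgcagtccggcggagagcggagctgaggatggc

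IFIT1 (negative difference; chr10:89392373-89392672, plus strand): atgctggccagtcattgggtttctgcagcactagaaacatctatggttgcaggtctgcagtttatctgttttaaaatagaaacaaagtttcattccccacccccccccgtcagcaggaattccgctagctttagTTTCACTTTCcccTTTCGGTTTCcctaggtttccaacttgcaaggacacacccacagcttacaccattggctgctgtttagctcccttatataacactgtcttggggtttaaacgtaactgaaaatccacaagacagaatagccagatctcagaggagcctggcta

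IFNAR1 (positive difference; chr21:33324145-33324444, plus strand): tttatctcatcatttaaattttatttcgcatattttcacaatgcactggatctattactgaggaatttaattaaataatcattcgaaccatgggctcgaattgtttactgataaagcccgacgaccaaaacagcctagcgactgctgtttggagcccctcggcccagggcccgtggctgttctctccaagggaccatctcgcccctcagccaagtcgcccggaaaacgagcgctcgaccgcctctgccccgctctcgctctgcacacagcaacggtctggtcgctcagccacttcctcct

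SOCS1 (positive difference; chr16:11256155-11256454, minus strand): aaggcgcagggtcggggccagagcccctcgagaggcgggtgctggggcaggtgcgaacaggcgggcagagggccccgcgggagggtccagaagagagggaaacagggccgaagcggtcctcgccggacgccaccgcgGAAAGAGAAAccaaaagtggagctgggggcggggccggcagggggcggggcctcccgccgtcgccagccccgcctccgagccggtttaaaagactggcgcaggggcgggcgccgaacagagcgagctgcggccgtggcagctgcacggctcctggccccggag

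The motif began 29 bases before the start of PARP14 and 113 before that of SOCS1, and at 116 and 103 before that of IFIT1. The IFNAR1 window held no match. A match is a description of letters and no measured binding site. Over all 27305 windows, 3.65% held the motif, and over the windows of 12269 tested genes, 3.06%. Among genes that rose in both responses, 57 of 589 windows held it (9.68%). Among the 101 of these genes whose response to ADAR siRNA was the lower one, 43 did (42.6%), while 1 of the 40 with the higher response did (2.5%). The share was 2.45% for 326 genes that rose with ADAR siRNA and fell with IFNa, and 2.53% for 434 that fell with ADAR siRNA and rose with IFNa. In the interferon stimulated gene list, which shares members with these sets, 30 of 48 windows held it (62.5%).

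The list of double-stranded RNA sensors and their relay covers the step at which unedited RNA is read. Of 25 list members 23 were tested, and 14 rose and 1 fell after ADAR siRNA (median 0.52), while 16 rose and 3 fell with IFNa (median 0.66). Over all genes, 11% rose after ADAR siRNA and 18.4% with IFNa. The difference was lower for 13 and higher for 4, beside 15.5% and 13.2% of all genes, with a median of -0.41. RIGI, a sensor of short double-stranded RNA ends, was at 41.6, 42.7 and 57.3 CPM after ADAR siRNA, against 11.2, 9.85 and 11.6 CPM in siNC, and at 128 and 113 CPM after IFNa, against 7.07, 4.29 and 5.19 CPM in batch 2 siNC. The groups did not overlap, and the responses of 2.11 ± 0.14 and 4.41 ± 0.17 differed by -2.30 ± 0.22 (adjusted p = 1.28e-06).

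IFIH1, the sensor of long double-stranded RNA, rose by 1.03 ± 0.09 and 2.86 ± 0.11 (difference -1.83 ± 0.14, adjusted p = 1.08e-07), and EIF2AK2 by 0.90 ± 0.08 and 1.84 ± 0.09 (difference -0.94 ± 0.12, adjusted p = 1.92e-05). ZBP1, a sensor of Z-form RNA, stayed under the expression filter, with 0.0186 CPM in 1 ADAR siRNA library and 0 in the other two and in siNC. In batch 2 it was at 0.18 and 0.292 CPM after IFNa, against 0.0622 to 0.079 CPM in siNC. The 4 members with a higher difference were MAVS, TICAM1, IRF3 and STING1, which were picked out after their values were seen. MAVS, the mitochondrial adaptor of RIGI and IFIH1, had responses of -0.30 and -1.17 (difference 0.87, adjusted p = 0.000298), and the factor IRF3 had 0.26 and -0.68 (difference 0.94, adjusted p = 0.00116).

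Interferon genes themselves were at the edge of detection. Summed over the libraries of each group, IFNB1 had 2 counts after ADAR siRNA and 0 in siNC, and 3 counts after IFNa and 1 in batch 2 siNC. IFNL1 had 1 count, IFNL2 had 5 and IFNL3 had 6 after ADAR siRNA, and each had 0 in siNC, where a count of 0 allows up to 3. IFNL2 and IFNL3 are near-identical, so the split of their counts is uncertain. Of the 14 genes of the list only IFNE was tested, and its difference was not called. At this depth the other 13 could not be compared between the responses.

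More genes of MHC class I antigen presentation rose with IFNa than after ADAR siRNA. Of 22 members, 9 rose and 0 fell after ADAR siRNA (median 0.15), beside 11% and 10.8% of all genes. With IFNa 15 rose and 1 fell (median 0.56), beside 18.4% and 15.9%. The 9 rose in both responses. A difference was called lower for 11 and higher for 1 (median -0.35), beside 15.5% and 13.2%. B2M, the shared light chain of class I molecules, was at 1099, 1093 and 1145 CPM after ADAR siRNA, against 1074, 1132 and 1107 CPM in siNC, and at 3553 and 3171 CPM after IFNa, against 1447, 1163 and 1282 CPM in batch 2 siNC. The ADAR siRNA and siNC libraries overlapped, and the IFNa libraries stood above all of their controls. The responses were 0.01 ± 0.08, not called, and 1.37 ± 0.09 (difference -1.36 ± 0.13, adjusted p = 7.96e-07). The heavy chains HLA-B and HLA-C had responses of 0.06 ± 0.07 and 0.09 ± 0.08 to ADAR siRNA, not called, and of 0.81 ± 0.08 and 0.82 ± 0.09 to IFNa. Their differences were -0.75 ± 0.11 and -0.72 ± 0.12 (adjusted p = 8.06e-05 and 0.000207), though reads of such related genes can be shared between them.

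**Figure D2:**
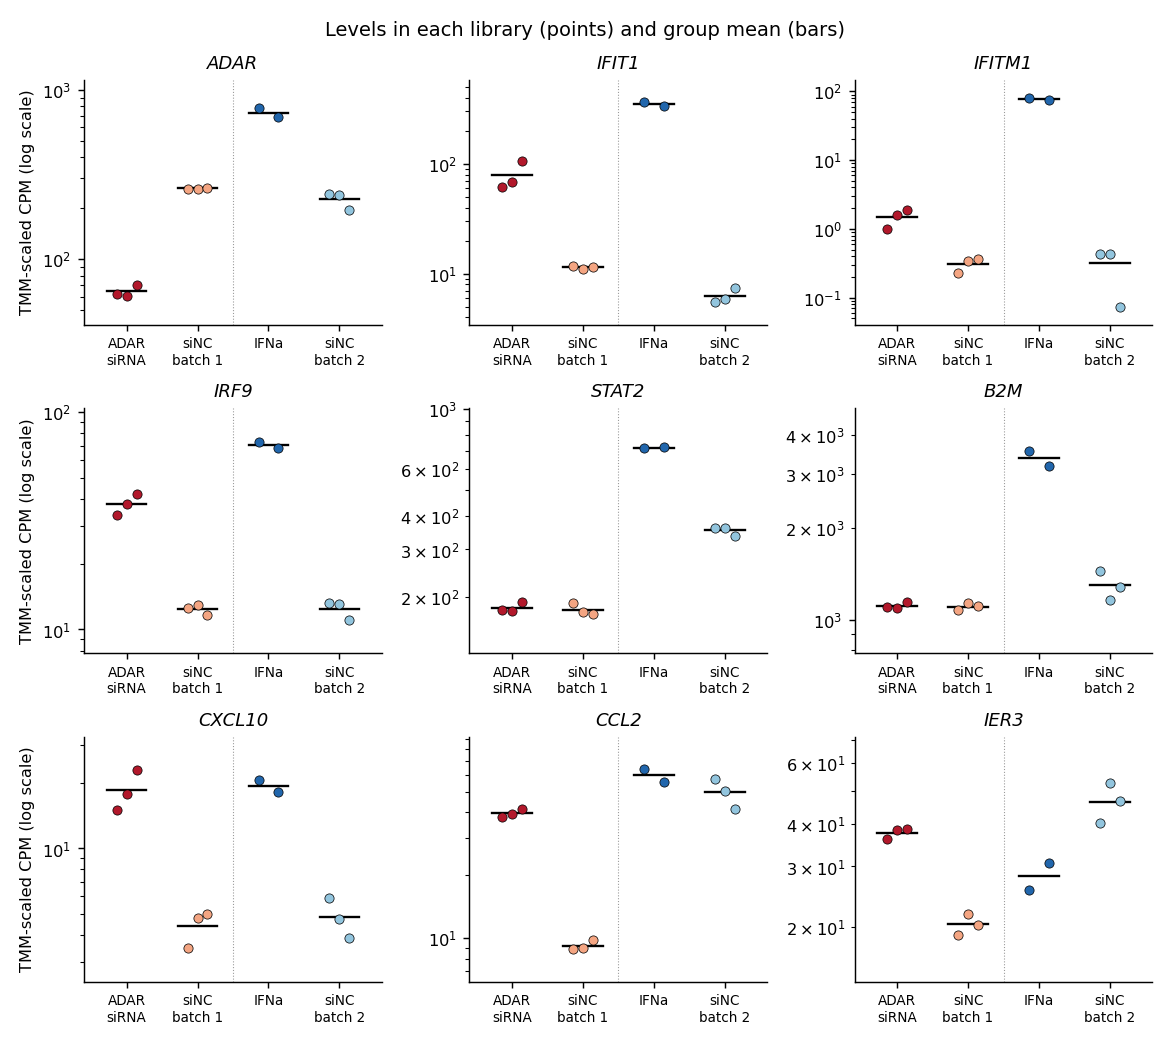
TMM-scaled CPM (log axes) of 9 genes in each of the 11 libraries, with group means as bars; the dotted line separates batch 1 from batch 2. IFITM1 reached 73.8 to 80.2 CPM after IFNa and 1.01 to 1.91 CPM after ADAR siRNA, while STAT2 and B2M stood above their controls after IFNa only.

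NF-kB targets and chemokines had medians of opposite sign in the 2 responses. Of 31 members 29 were tested; 16 rose and 1 fell after ADAR siRNA (median 0.40), whereas 3 rose and 12 fell with IFNa (median -0.23), and 7 did both. The difference was called higher for 18 and lower for 0, beside 13.2% and 15.5% of all genes, with a median of 0.71. The control level of these genes differed between batches, by a median of 1.58 on the log2 scale for batch 2 siNC minus batch 1 siNC. Their summed level was 3402 to 3441 CPM after ADAR siRNA and 2783 to 2985 CPM in batch 1 siNC, but 7259 to 7605 CPM after IFNa and 10301 to 12198 CPM in batch 2 siNC. The level in the IFNa libraries thus exceeded that in the ADAR siRNA libraries although the response was the lower one. The part of this starting level in the difference was not tested. Inside batch 2 with BX795, 5 members rose and 1 fell with ADAR siRNA (median 0.17), beside 5.06% and 4.46% of all genes. Set against IFNa, 14 were higher and 2 lower (median 0.42), beside 14% and 13.3% of all genes.

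CCL2, a chemokine that draws monocytes, was at 37.9, 39.3 and 41.7 CPM after ADAR siRNA, against 8.9, 8.99 and 9.82 CPM in siNC, and at 64.1 and 55.9 CPM after IFNa, against 57.6, 50.5 and 41.7 CPM in batch 2 siNC. The first pair did not overlap and the second did. The responses of 2.10 ± 0.12 and 0.26 ± 0.12, the second not called, differed by 1.84 ± 0.17 (adjusted p = 9.66e-07). CCL5, an attractant of T cells, had responses of 4.66 ± 0.46 and 0.01 ± 0.23 and a difference of 4.65 ± 0.54 (adjusted p = 1.73e-05), with 0.298 to 0.476 CPM after ADAR siRNA and 0 to 0.0247 CPM in siNC. In batch 2 it stood higher, at 2.05 to 2.33 CPM after IFNa and 2.05 to 2.29 CPM in siNC. Inside batch 2 with BX795, its difference was 0.40 ± 0.31, not called.

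IER3, an early NF-kB target, rose after ADAR siRNA to 36.1, 38.3 and 38.6 CPM, against 18.9, 21.8 and 20.3 CPM in siNC. It fell after IFNa to 25.6 and 30.7 CPM, against 40.1, 52.5 and 46.5 CPM in batch 2 siNC. Neither pair overlapped, and the responses of 0.89 ± 0.11 and -0.72 ± 0.13 differed by 1.61 ± 0.17 (adjusted p = 2.9e-06). CXCL8, the neutrophil chemokine, had responses of 0.63 ± 0.09 and 0.01 ± 0.10 (difference 0.62 ± 0.14, adjusted p = 0.0032). CXCL10 was among the 11 tested members with no called difference. As a chemokine gene under both interferon and NF-kB control, it stood at 15, 17.9 and 23 CPM after ADAR siRNA, against 3.46, 4.77 and 4.96 CPM in siNC, and at 20.7 and 18.2 CPM after IFNa, against 5.93, 4.72 and 3.85 CPM in batch 2 siNC. Its responses of 2.08 ± 0.18 and 1.98 ± 0.21 gave a difference of 0.10 ± 0.28 (adjusted p = 0.838), from like control levels. Inside batch 2 with BX795, its ADAR siRNA response was -0.06 ± 0.20, not called, from 14.8 to 17.2 CPM with BX795 alone. Set against IFNa, that left a difference of -2.04 ± 0.30 (adjusted p = 0.00013).

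A kappaB-like motif of 10 letters, GGGAA followed after any 3 bases by CC, was chosen after results were seen. It lay in 12 of the 23 promoter windows of this list (52.2%), beside 7.94% of tested genes, 5 of 48 interferon stimulated genes (10.4%) and 7.36% of genes that rose with ADAR siRNA and fell with IFNa. The ISRE motif lay in 2 of the 23 (8.7%).

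**Figure D3:**
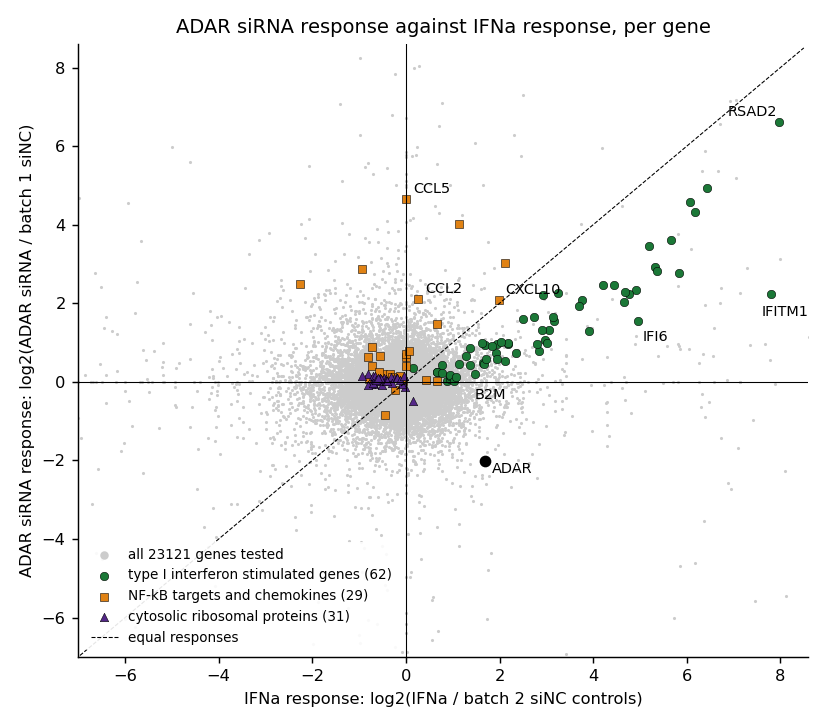
Response to ADAR siRNA (vertical) against response to IFNa (horizontal), both log2, for all genes tested (grey), with 3 gene lists and ADAR marked; 56 genes lie outside the axes and the dashed line marks equal responses. Interferon stimulated genes (green) run below the dashed line, NF-kB targets and chemokines (orange) sit above it or near 0, and ribosomal protein genes (purple) spread along the horizontal axis.

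Over the whole transcriptome, 6638 of 23121 tested genes had a called difference, 3045 higher and 3593 lower after ADAR siRNA, and 1747 of them by 2-fold or more. ADAR siRNA changed 5042 genes (21.8%) and IFNa 7932 (34.3%). IFNa replicate 1 carried much of this: without it the difference was called for 3275 genes, 1426 higher and 1849 lower, and IFNa changed 2494. With a correction for GC content, 6324 genes were called, of which 4741 were among the 6638, all in the same direction. The same correction gave 6647 genes changed by ADAR siRNA and 6061 by IFNa, and limma voom gave 8166 and 6651. Which treatment changed more genes thus depended on the setting.

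Genes that changed in both responses fell into 4 sets. Of these, 723 rose in both, which is 28.5% of the rises after ADAR siRNA and 17% of the rises with IFNa, and 552 fell in both (22.1% and 15%). Another 425 rose with ADAR siRNA and fell with IFNa (16.7% and 11.5%), and 553 fell with ADAR siRNA and rose with IFNa (22.1% and 13%). Over all genes, 11% rose and 10.8% fell with ADAR siRNA, and 18.4% rose and 15.9% fell with IFNa. All 978 genes called in opposite directions had a called difference, which follows largely from how they were chosen. Among the 723 that rose in both, the response to ADAR siRNA was lower for 126, higher for 47 and not called different for 550. Without IFNa replicate 1 the 4 sets held 368, 193, 148 and 199 genes. The set that rose with ADAR siRNA and fell with IFNa also held 282 genes without ADAR siRNA replicate 2 and 717 without batch 2 siNC replicate 1.

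The overlap of strong responders was read against the share of all genes. Of 375 genes that IFNa raised 2-fold or more, 131 also rose after ADAR siRNA (34.9%, beside 11% of all genes), 29 fell and 215 were not called. Of 438 genes that ADAR siRNA raised 2-fold or more, 82 also rose with IFNa (18.7%, beside 18.4% of all genes), 51 fell and 305 were not called. Of 342 genes that ADAR siRNA lowered 2-fold or more, 49 also fell with IFNa (14.3%, beside 15.9% of all genes).

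**Figure D4:**
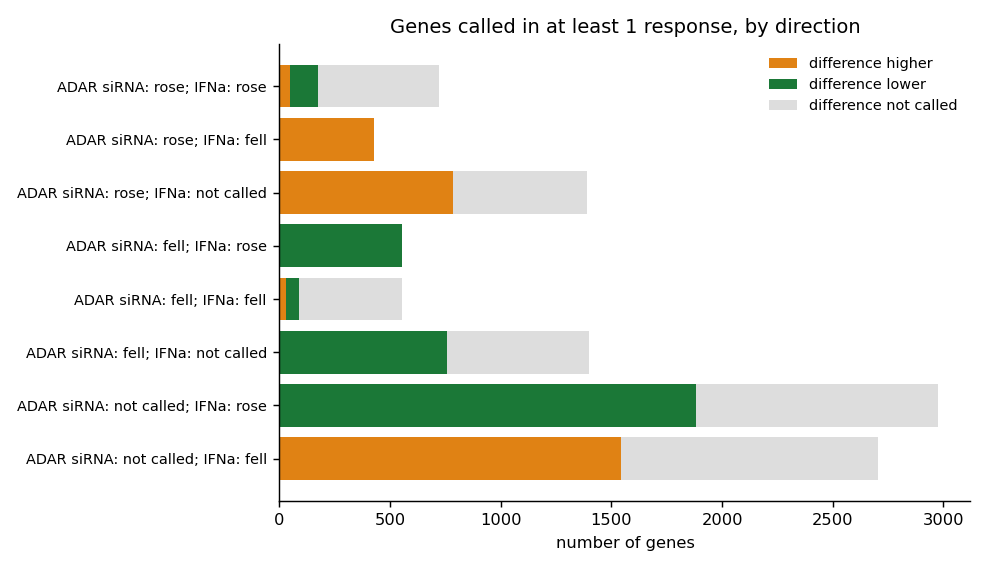
Number of genes called in at least 1 response, by direction of the ADAR siRNA response and of the IFNa response, split by the call on the difference. Rises in both (723 genes) mostly had no called difference (550), and the longest bars are genes called with IFNa alone (2974 rose, 2705 fell).

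The genes with the largest positive differences, among those with a group mean of 1 CPM or more in each batch, were mostly low in level. HSPA6, an inducible HSP70 chaperone, was at 1.75, 2.01 and 1.8 CPM after ADAR siRNA, against 0.549, 0.766 and 0.102 CPM in siNC, and at 1.41 and 1.2 CPM after IFNa, against 4.11, 5.22 and 6 CPM in batch 2 siNC. Its responses of 2.05 ± 0.40 and -1.95 ± 0.43 differed by 4.0 ± 0.59 (adjusted p = 9.22e-05), though its near copy HSPA7 makes the count uncertain. F13A1, a subunit of coagulation factor XIII, was at 8.3 to 9.31 CPM after ADAR siRNA, against 1.71 to 2.3 CPM in siNC, and at 0.719 to 0.948 CPM after IFNa, against 1.33 to 1.66 CPM in batch 2 siNC. Its difference was 3.13 ± 0.28 (adjusted p = 5.41e-07). TNFRSF9, the costimulatory receptor 4-1BB, rose by 1.47 ± 0.17 and fell by 1.37 ± 0.18 on the log2 scale (difference 2.84 ± 0.25, adjusted p = 4.26e-07). The ion channel genes HCN4 and KCNK6, the actin-binding LSP1 and the ligand gene WNT7B had differences of 2.87, 2.57, 2.78 and 2.48. For SPTB, which encodes beta-spectrin, the linker histone gene H1-5 and TMEM238 they were 2.70, 2.71 and 2.59; H1-5 and TMEM238 were not called after ADAR siRNA, so these differences came from the IFNa side.

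Outside the interferon list, 5 genes with large negative differences are given. IGFBP5, which binds insulin-like growth factors, was at 12.7, 12.1 and 13.8 CPM after ADAR siRNA, against 48, 47.5 and 40.9 CPM in siNC, and at 29.4 and 32 CPM after IFNa, against 12.5, 15.5 and 12.5 CPM in batch 2 siNC. Neither treated group overlapped its own controls, and the responses of -1.82 ± 0.11 and 1.19 ± 0.13 differed by -3.01 ± 0.17 (adjusted p = 4.05e-09). LRRTM3, which encodes a synaptic adhesion protein, and the Wnt antagonist gene DKK2 fell and rose in the same order, with differences of -4.06 ± 0.47 and -2.79 ± 0.50 at levels of 2.44 CPM or less. CASP14, a caspase of skin, fell with ADAR siRNA (-3.90 ± 0.39) and was not called with IFNa (-0.53 ± 0.33), a difference of -3.37 ± 0.52. RSC1A1 was not called after ADAR siRNA and rose with IFNa, with a difference of -2.86 ± 0.78 that rested on 0 CPM in 2 of 3 batch 2 siNC libraries and was not called without IFNa replicate 1 (adjusted p = 0.0936).

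Among genes with a group mean of 1 CPM or more in each batch, those that fell furthest in both were G0S2, an inhibitor of triglyceride lipase, RASA4B, the retinol dehydrogenase RDH16 and the tight junction gene CLDN14. G0S2 was at 43.7, 54.2 and 45.4 CPM after ADAR siRNA, against 132, 137 and 133 CPM in siNC, and at 4.64 and 6.74 CPM after IFNa, against 9.96, 19.1 and 17.1 CPM in batch 2 siNC. Its responses of -1.49 ± 0.18 and -1.42 ± 0.25 left a difference of -0.06 ± 0.31 (adjusted p = 0.913). RDH16 had responses of -1.31 ± 0.10 and -1.24 ± 0.25 and CLDN14 of -1.46 ± 0.19 and -1.14 ± 0.34, and neither difference was called. RASA4B has a near-identical copy and is uncertain.

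Ribosomal protein genes separated the treatments by their fall with IFNa. Of 31 tested, 0 rose and 1 fell after ADAR siRNA (median 0.05), and 0 rose and 23 fell with IFNa (median -0.51). Over all genes, 15.9% fell with IFNa. The difference was higher for 21 and lower for 1, beside 13.2% and 15.5% of all genes, with a median of 0.56. RPL7A was at 485, 498 and 509 CPM after ADAR siRNA, against 419, 434 and 438 CPM in siNC, and at 249 and 297 CPM after IFNa, against 427, 560 and 456 CPM in batch 2 siNC. Its response to ADAR siRNA of 0.21 ± 0.09 was not called, and that to IFNa of -0.82 ± 0.10 was (difference 1.03 ± 0.14, adjusted p = 3.65e-05). RPL7 had a difference of 0.65 ± 0.10. Ribosomal protein genes have many processed pseudogenes, which can take or lend reads.

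Most cell cycle genes on the list rose with ADAR siRNA. Of 30 cell cycle genes, 19 rose and 0 fell after ADAR siRNA (median 0.39), beside 11% and 10.8% of all genes. With IFNa 1 rose and 7 fell (median -0.11), beside 18.4% and 15.9%. A difference was higher for 18 and lower for 0 (median 0.52), beside 13.2% and 15.5%. The 18 became 10 without IFNa replicate 1. CCND1, the G1 cyclin D1, was at 288, 280 and 281 CPM after ADAR siRNA, against 164, 166 and 182 CPM in siNC, and at 146 and 138 CPM after IFNa, against 146, 150 and 151 CPM in batch 2 siNC (difference 0.80 ± 0.09, adjusted p = 3.49e-06). CDT1, which licenses replication origins, and TYMS, thymidylate synthase, had differences of 1.63 ± 0.24 and 0.81 ± 0.12. The list went the other way inside batch 2. With BX795 present, ADAR siRNA raised 1 and lowered 17 of the 30 members (median -0.67), beside 5.06% and 4.46% of all genes. Set against IFNa, 1 was higher and 13 lower, beside 14% and 13.3% of all genes.

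Among 24 p53 targets, 8 rose and 1 fell after ADAR siRNA (median 0.21), beside 11% and 10.8% of all genes. With IFNa 3 rose and 8 fell (median -0.06), beside 18.4% and 15.9%. A difference was higher for 11 and lower for 1 (median 0.32), beside 13.2% and 15.5%. Without IFNa replicate 1, 7 were higher and 0 lower, and without batch 2 siNC replicate 1, 12 and 5. Inside batch 2 with BX795, 8 were higher and 4 lower, beside 14% and 13.3% of all genes. CDKN1A, the cyclin-dependent kinase inhibitor p21, rose by 0.58 ± 0.06 and fell by 0.22 ± 0.07 (difference 0.79 ± 0.09, adjusted p = 1.13e-05). PLK3 and TP53I3 had differences of 1.20 ± 0.14 and 1.19 ± 0.14, and 5 members of the list rose with ADAR siRNA and fell with IFNa.

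Of 24 tested cell death effectors, 11 rose and 1 fell after ADAR siRNA, beside 11% and 10.8% of all genes. With IFNa 12 rose and 5 fell, beside 18.4% and 15.9%. Each response had a median of 0.23. A difference was higher for 8 and lower for 6, beside 13.2% and 15.5%. The 8 became 5 without IFNa replicate 1. XAF1, which antagonises the caspase inhibitor XIAP, followed the interferon stimulated genes (1.94 ± 0.09 and 3.70 ± 0.10, difference -1.76 ± 0.13). TNFSF10, the death ligand TRAIL, was not called after ADAR siRNA (-0.16 ± 0.09) and rose with IFNa (1.13 ± 0.10; difference -1.29 ± 0.13). BAX, a p53-responsive pore former of mitochondria, rose by 0.46 ± 0.08 and fell by 0.33 ± 0.09 (difference 0.79 ± 0.12, adjusted p = 0.000107).

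For stress programmes, 21 targets of the integrated stress response, which PKR can start, were tested. After ADAR siRNA 7 rose and 5 fell (median -0.02), beside 11% and 10.8% of all genes. With IFNa 4 rose and 9 fell (median -0.39), beside 18.4% and 15.9%. A difference was higher for 7 and lower for 2 (median 0.25), beside 13.2% and 15.5%. Without IFNa replicate 1, 1 was higher. GDF15, a stress-induced cytokine, had responses of 1.28 ± 0.14 and -0.48 ± 0.16 (difference 1.76 ± 0.22, adjusted p = 1.71e-05), while asparagine synthetase (ASNS) had -0.37 ± 0.10 and 0.31 ± 0.12 (difference -0.68 ± 0.15, adjusted p = 0.00313). PPP1R15A, a phosphatase subunit that ends the response, had a difference of 0.83 ± 0.19, a call lost without IFNa replicate 1. Among 20 chaperones of the unfolded protein response, 7 rose and 0 fell after ADAR siRNA (median 0.15). With IFNa 5 rose and 5 fell (median -0.04). A difference was higher for 6 and lower for 1, beside the same 13.2% and 15.5% of all genes. The 6 became 11 with the GC correction, where the median difference was 0.34 in place of 0.13. PDIA4 and HYOU1, both endoplasmic reticulum chaperones, had differences of 0.83 ± 0.11 and 0.70 ± 0.10, and HERPUD1 of -0.52 ± 0.11.

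**Figure D5:**
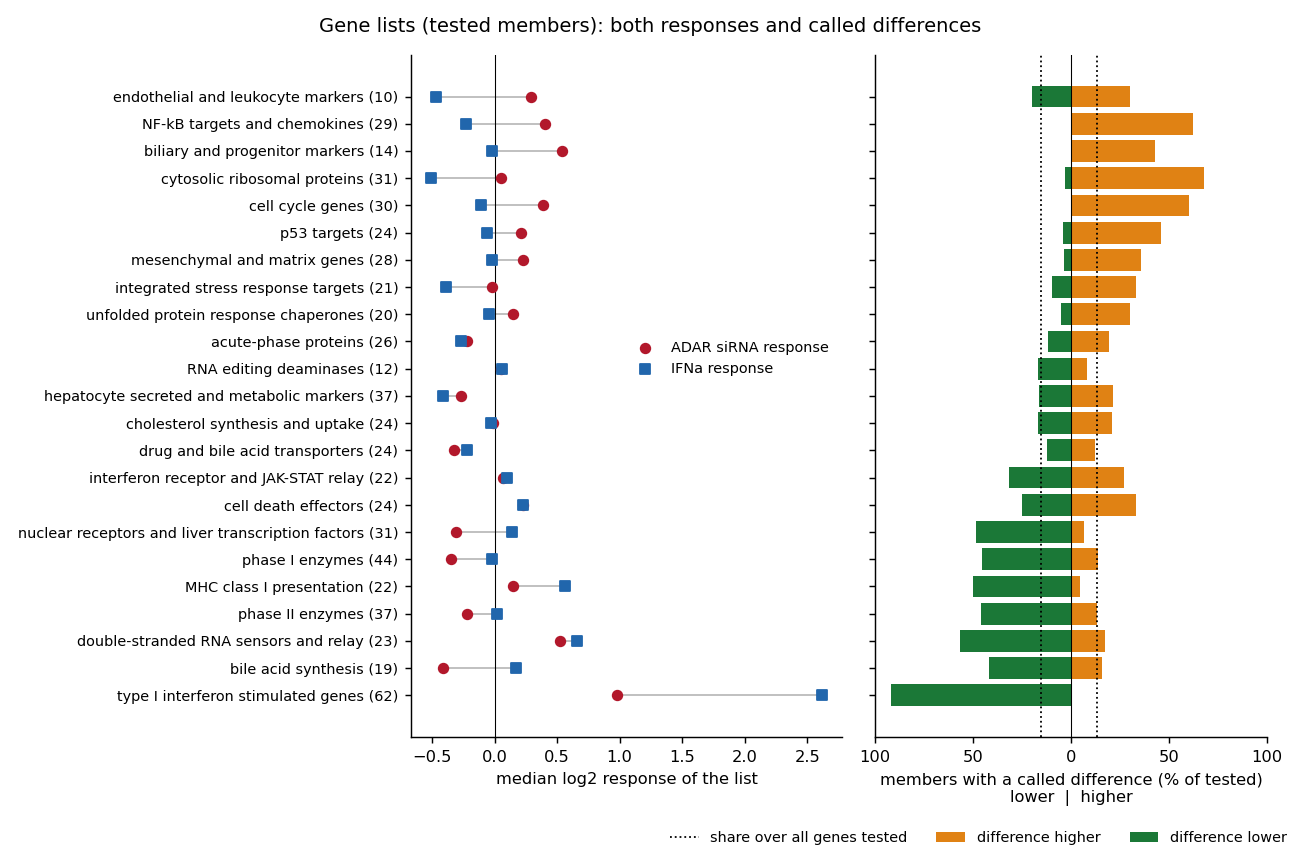
Left, median log2 response of each gene list with at least 10 tested members (number in brackets) to ADAR siRNA (red) and IFNa (blue). Right, percent of members whose difference was called higher (orange) or lower (green), with dotted lines at the shares over all genes tested (13.2% and 15.5%); interferon stimulated genes lie at one end, NF-kB targets and ribosomal protein genes near the other.

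Liver genes fell widely after ADAR siRNA, and several classes held more lower than higher differences. Of all genes tested, 11% rose and 10.8% fell after ADAR siRNA, and 18.4% rose and 15.9% fell with IFNa. A difference was lower for 15.5% of them and higher for 13.2%. The phase I, phase II, bile acid, transporter, hepatocyte and acute-phase lists started lower in batch 2 siNC than in batch 1 siNC. Their median control levels were 1.49 to 3.27 lower on the log2 scale. For the liver transcription factors the level was 0.67 lower. For the cholesterol genes, batch 2 siNC minus batch 1 siNC was -0.88. Of 44 phase I enzymes, 6 rose and 23 fell after ADAR siRNA (median -0.35), and 12 rose and 7 fell with IFNa (median -0.02), with 20 differences lower and 6 higher (median -0.34). CYP2C8, which oxidises taxanes and other drugs, was at 98.7, 96.6 and 102 CPM after ADAR siRNA, against 181, 181 and 168 CPM in siNC, and at 11.9 and 11.6 CPM after IFNa, against 7.63, 8.64 and 5.48 CPM in batch 2 siNC. It fell after ADAR siRNA (-0.83 ± 0.09) and rose with IFNa (0.68 ± 0.13; difference -1.51 ± 0.15, adjusted p = 1.98e-06). Monoamine oxidase A (MAOA), with like levels in both sets of controls, moved the same way (-0.62 ± 0.08 and 0.46 ± 0.09, difference -1.08 ± 0.13). CYP1B1, an extrahepatic oxidase, had a difference of -1.01 ± 0.10.

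CYP3A4, the main drug-oxidising P450 of liver, ran against its class. It was at 1054, 1012 and 1112 CPM after ADAR siRNA, against 228, 236 and 210 CPM in siNC, and at 2.95 and 2.15 CPM after IFNa, against 1.62, 1.74 and 1.26 CPM in batch 2 siNC. It rose in both, by 2.24 ± 0.11 and 0.73 ± 0.25 (difference 1.51 ± 0.28, adjusted p = 0.000767), with a log2 control level in batch 2 siNC minus that in batch 1 siNC of -7.16. Inside batch 2 with BX795, ADAR siRNA raised CYP3A4 by 0.52 ± 0.12. Set against IFNa, that left a difference of -0.21 ± 0.28, not called (adjusted p = 0.627).

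Of 37 tested phase II enzymes, 3 rose and 13 fell after ADAR siRNA (median -0.22) and 9 rose and 5 fell with IFNa (median 0.02); 17 differences were lower and 5 higher (median -0.38). GSTA1, a glutathione transferase, fell after ADAR siRNA (-0.98 ± 0.06) and was not called with IFNa (-0.13 ± 0.06; difference -0.85 ± 0.08), and the histamine methyltransferase HNMT had responses of -0.50 ± 0.12 and 0.90 ± 0.13 (difference -1.41 ± 0.17). Among 19 tested genes of bile acid synthesis, 0 rose and 14 fell after ADAR siRNA (median -0.41), and 4 rose and 5 fell with IFNa (median 0.17), with 8 differences lower and 3 higher (median -0.51, which was -0.17 with the GC correction). BAAT, which joins bile acids to amino acids, had responses of -0.62 ± 0.11 and 0.75 ± 0.13 (difference -1.37 ± 0.17, adjusted p = 1.54e-05), and SCP2 of -0.41 ± 0.06 and 0.22 ± 0.07. HSD3B7 was not called after ADAR siRNA and fell with IFNa (0.10 ± 0.13 and -1.17 ± 0.16). For CYP7A1, the rate-limiting enzyme, which had under 1 CPM in every batch 2 library, the difference of -1.19 ± 0.33 was not called in 5 of 20 alternatives.

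Transcription factors of liver identity fell mainly with ADAR siRNA. Of 31, 1 rose and 16 fell after ADAR siRNA (median -0.31) and 11 rose and 7 fell with IFNa (median 0.14), with 15 differences lower and 2 higher (median -0.32). HNF4A, the central hepatocyte factor, was at 177, 186 and 190 CPM after ADAR siRNA, against 298, 307 and 280 CPM in siNC, and at 83 and 88.3 CPM after IFNa, against 78.9, 96.7 and 71.4 CPM in batch 2 siNC. The first pair did not overlap and the second did (responses -0.68 ± 0.08 and 0.06 ± 0.09, difference -0.74 ± 0.12, adjusted p = 0.000321). NR2F1 and ONECUT1, also transcription factors, had differences of -1.23 ± 0.13 and -1.22 ± 0.15. NR1I3, the xenobiotic sensor CAR, fell in both, with responses of -1.41 ± 0.20 and -2.84 ± 0.80 and a difference that was not called (1.43 ± 0.86, adjusted p = 0.23); it had at most 0.277 CPM in batch 2.

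About as many hepatocyte secreted and metabolic genes fell with ADAR siRNA as with IFNa. Of 37, 3 rose and 19 fell after ADAR siRNA (median -0.27) and 2 rose and 20 fell with IFNa (median -0.41), 9 of them in both, and 8 differences were higher and 6 lower (median 0.05). Without IFNa replicate 1 these were 4 and 3, and without batch 2 siNC replicate 2, 10 were lower. TDO2, which opens the breakdown of tryptophan, stood out. It was at 84.3, 82.8 and 94.6 CPM after ADAR siRNA, against 269, 272 and 275 CPM in siNC, and at 131 and 124 CPM after IFNa, against 62.9, 63.2 and 50.9 CPM in batch 2 siNC. The responses of -1.64 ± 0.11 and 1.11 ± 0.12 differed by -2.75 ± 0.16 (adjusted p = 5.64e-09). CPS1 of the urea cycle fell after ADAR siRNA (-1.25 ± 0.11) and was not called with IFNa (0.17 ± 0.14; difference -1.43 ± 0.17), whereas APOA5 was not called after ADAR siRNA (0.35 ± 0.14) and fell with IFNa (-2.12 ± 0.33; difference 2.47 ± 0.35). ALB fell in both (-0.59 ± 0.08 and -0.27 ± 0.08), and its difference of -0.32 ± 0.11 (adjusted p = 0.0403) was lost in 15 of 20 alternatives.

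For 26 tested acute-phase genes, 2 rose and 8 fell after ADAR siRNA (median -0.22), 0 rose and 11 fell with IFNa (median -0.27), and 5 differences were higher and 3 lower. The 5 became 2 without IFNa replicate 1, and 3 without ADAR siRNA replicate 2, siNC replicate 3, IFNa replicate 2 or batch 2 siNC replicate 2. CRP fell in both (-0.26 ± 0.08 and -0.37 ± 0.11) with no called difference (0.11 ± 0.14, adjusted p = 0.585). SERPINA1, which encodes alpha-1 antitrypsin, was not called after ADAR siRNA (0.03 ± 0.09) and fell with IFNa (-0.56 ± 0.11). SAA4 had a difference of -0.75 ± 0.12 and HPX, hemopexin, one of 0.79 ± 0.21. The HPX call was lost without IFNa replicate 1. Of 24 drug and bile acid transporters, 2 rose and 12 fell after ADAR siRNA (median -0.32) and 0 rose and 8 fell with IFNa (median -0.22), 6 in both, with 3 differences in each direction. The efflux pumps ABCB1 and ABCB4 fell after ADAR siRNA and were not called with IFNa (differences -0.77 ± 0.13 and -0.63 ± 0.14). ABCC3 was not called after ADAR siRNA and fell with IFNa (difference 0.37 ± 0.09). Its difference was not called without the expression filter, or with the GC correction, alone or with the replicate block. Of 24 genes of cholesterol synthesis and uptake, 2 rose and 6 fell after ADAR siRNA and 7 rose and 8 fell with IFNa, with 5 differences higher and 4 lower. The 5 became 2 without IFNa replicate 1, 8 without batch 2 siNC replicate 1, and 3 without ADAR siRNA replicate 2, siNC replicate 1 or batch 2 siNC replicate 3. FDPS had 0.54 ± 0.08, SC5D -1.25 ± 0.20 and STARD4 -0.72 ± 0.15. Of all genes tested, 13.2% had a higher difference and 15.5% a lower one. The transporters lay near both shares, and the acute-phase and cholesterol genes near the share of lower differences.

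Most biliary markers tested rose with ADAR siRNA. Of 14 tested biliary and progenitor markers, 10 rose and 0 fell after ADAR siRNA (median 0.54), beside 11% and 10.8% of all genes. With IFNa 2 rose and 2 fell (median -0.02), beside 18.4% and 15.9%. A difference was higher for 6 and lower for 0 (median 0.61), beside 13.2% and 15.5%. KRT19, a keratin of bile duct cells, rose after ADAR siRNA to 729, 761 and 721 CPM, against 304, 304 and 339 CPM in siNC. It fell after IFNa to 104 and 131 CPM, against 156, 223 and 225 CPM in batch 2 siNC. Neither pair overlapped, and the responses of 1.22 ± 0.12 and -0.78 ± 0.14 differed by 2.00 ± 0.19 (adjusted p = 1.05e-06). The integrin gene ITGB4 moved likewise (0.82 ± 0.12 and -0.88 ± 0.15), and osteopontin (SPP1) rose in both (1.43 ± 0.08 and 0.93 ± 0.11). Inside batch 2 with BX795, 2 of these markers rose and 1 fell with ADAR siRNA, beside 5.06% and 4.46% of all genes. Set against IFNa, 2 were higher and 1 lower, beside 14% and 13.3% of all genes, so the higher count lay near that share.

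Among the 28 genes of mesenchyme and matrix, 12 rose and 2 fell after ADAR siRNA (median 0.23), beside 11% and 10.8% of all genes. With IFNa 6 rose and 5 fell (median -0.02), beside 18.4% and 15.9%. A difference was higher for 10 and lower for 1 (median 0.31), beside 13.2% and 15.5%. The 10 became 6 without IFNa replicate 1. CCN2 rose after ADAR siRNA and fell with IFNa (0.62 ± 0.08 and -0.24 ± 0.09, difference 0.86 ± 0.11). COL5A1 was not called after ADAR siRNA (0.25 ± 0.14) and fell with IFNa (-0.95 ± 0.16), a difference of 1.21 ± 0.22. Of 22 endothelial and leukocyte markers only 10 passed the expression filter. A difference was higher for 3 and lower for 2, beside the same 13.2% and 15.5% of all genes. KDR, the VEGF receptor 2, stood at 125 to 148 CPM after ADAR siRNA, against 152 to 166 CPM in siNC, and at 628 and 692 CPM after IFNa, against 409 to 455 CPM in batch 2 siNC. It was not called after ADAR siRNA (-0.19 ± 0.07) and rose with IFNa (0.60 ± 0.08), CD68 had a difference of -0.59 ± 0.15, and PECAM1, at under 2 CPM in all libraries, had 2.79 ± 0.63, which was not called with limma voom (adjusted p = 0.173).

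Of 12 tested deaminases, ADAR among them, 2 rose and 3 fell after ADAR siRNA and 4 rose and 2 fell with IFNa. A difference was higher for 1 and lower for 2, beside 13.2% and 15.5% of all genes. APOBEC3C, a cytidine deaminase that restricts retroelements, was not called after ADAR siRNA and fell with IFNa (0.15 ± 0.12 and -0.55 ± 0.14, difference 0.70 ± 0.18), and ADAT2, which edits tRNA, was not called after ADAR siRNA and rose with IFNa (-0.04 ± 0.11 and 0.62 ± 0.14, difference -0.66 ± 0.18). Both calls were lost without IFNa replicate 1, and that of ADAT2 also with the GC correction.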

How the data were processed

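Gene-level expected counts were deposited. Per the submitters' processing notes the authors worked with STAR, Salmon and GRCh38.p14; which step each tool served, and its settings, are unknown here. Whole numbers, within 0.005, made up 94.82% of the entries, and the rest were rounded. Symbols matched 61463 of 78894 gene identifiers. All 19 libraries entered a fit of 1 coefficient per group with edgeR 4.0.16 in R 4.3.3 (TMM scaling, filterByExpr, quasi-likelihood F test), which left 23121 genes and 12 residual degrees of freedom, so the 2 IFNa libraries borrowed the spread of other groups. P-values were adjusted over all tested genes by the Benjamini-Hochberg method and called below 0.05; every adjusted p in the text is from this test unless another tool is named. "Rose", "fell" and "called" refer to it. The SE of a log2 value follows ±. Levels are TMM-scaled CPM, which were computed here and are not corrected for gene length. Precision follows the total counts, which were lowest in batch 2; limits from a count of 0 cover counting error alone.

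Alternatives were DESeq2 1.42.0 size factors or its test, 2 other expression filters, the 4 groups alone, limma 3.58.1 voom with quality weights, a per-library correction for GC content (known for 87% of tested genes), the replicate number as a block, both together, and leaving out each library. The fit was tested on simulated counts. The members and the 24 gene lists were chosen with earlier results of these data known. Named genes were ADAR and ADARB1, the 8 largest called differences in each direction and the 4 strongest of each joint set (in each batch, 1 group or more averaging 1 CPM or above, and for the 8 no overlap between responses), the 3 smallest p of each list and 26 set genes; a few others were singled out after their values were seen. Some genes that this rule takes are not reported here.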

Additional observations from a re-analysis of the deposited data

How the results depend on the processing

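Of 112 named genes tested, 96 kept their side of the threshold, and where called their direction, in each alternative that tested them. The 20 alternatives are listed with the methods, and a few genes were not tested in all of them. Counts of calls moved by over 1.5 times as follows. With limma voom, ADAR siRNA changed 8166 genes and 674 rose with ADAR siRNA and fell with IFNa. With the replicate block, 459 genes rose in both, 358 fell in both, 243 rose with ADAR siRNA and fell with IFNa, and 334 did the reverse. Deviations of same-numbered libraries correlated at 0.01, -0.04 and -0.03 between ADAR siRNA and siNC, so these numbers did not pair the samples. In batch 2 they correlated at 0.73 and 0.5 between IFNa and siNC, over only 2 pairs, and no label gives these a shared origin. With the replicate block and GC correction together, IFNa changed 4564 genes, and the difference of ALB turned to 0.00. Inside batch 2 with BX795, a setting added after seeing the data, ADAR siRNA changed 2201 genes. Leaving out 1 library in turn gave 3275 to 8590 called differences (1426 to 4054 higher, 1849 to 4536 lower), 3708 to 5833 genes changed by ADAR siRNA and 2494 to 9623 by IFNa. It gave 54 to 58 interferon stimulated genes with a called difference, 368 to 962 genes that rose in both, 193 to 744 that fell in both, 148 to 717 that rose with ADAR siRNA and fell with IFNa, and 199 to 737 that did the reverse. Each lowest value except those for ADAR siRNA and the interferon list came without IFNa replicate 1. The causes of these moves were not tested. The 2 IFNa libraries and the shallow batch 2 controls limit genes of low level, and the responses come from different batches.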
